A study of Mus musculus with 8 samples.

Results

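NF-κB is a family of dimeric transcription factors held in the cytoplasm of resting lymphocytes by inhibitory IκB proteins and released when antigen receptors, costimulatory receptors or TNF and IL-1 family receptors signal. The 10 genes described here encode its 5 subunits (Nfkb1, Nfkb2, Rel, Rela and Relb) and 5 regulators that NF-κB itself is known to induce (Nfkbia, Nfkbie, Nfkbiz, Bcl3 and Tnfaip3). They were taken by name and not by a cutoff on their values, with earlier results of these data known, from 27594 genes in the deposited counts. In Treg cells, c-Rel, the product of Rel, is known for its part in the induction of Foxp3, and p100, the product of Nfkb2, retains RelB until the noncanonical pathway processes it to p52.

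The cells were CD4+YFP+ Treg cells of C57BL/6 mice aged 6 to 8 weeks, taken from spleen and peripheral lymph nodes. WT mice were Foxp3-YFP-Cre and Foxp1-deficient mice (Foxp1 cKO in the labels) were Foxp1fl/fl Foxp3-YFP-Cre, so that both genotypes carried a Cre recombinase driven from the Foxp3 locus. From each genotype, resting Treg (rTreg, CD44low) and activated Treg (aTreg, CD44high) cells were sorted by surface markers that include CD44, which gave 4 groups of 2 RNA-seq libraries. The labels do not say how many mice went into a library. The p-values therefore measure a spread between these libraries, namely what is left once differences shared by libraries of one replicate number are removed.

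The libraries held between 6373170 and 15268623 counts. All 10 genes passed the filter on low counts and were among the 14540 genes tested. Their lowest count was 386 (Nfkbie) and their highest was 17006 (Tnfaip3), both in Foxp1-deficient replicate 1 libraries. Levels are given as CPM, counts scaled to the library total after TMM normalization, and are compared between genes only as FPKM, which also divides by gene length. The activated and Treg markers followed the labels. The summed CPM of the 7 activated markers, among them Icos and Klrg1, lay between 190 and 219 in rTreg cells and between 1267 and 1992 in aTreg cells. The 6 Treg markers summed to between 2788 and 4317 CPM in all libraries. Markers of other cells were low. The 6 B cell markers summed to between 7.92 and 9.56 CPM in rTreg cells and between 18.4 and 21.2 CPM in aTreg cells, and the 8 myeloid markers to between 0.786 and 5.38 CPM in WT and between 4.74 and 31.2 CPM in Foxp1-deficient libraries. No marker of either list was at 0 in all libraries, and the part of such cells in the results was not tested.

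Foxp1, the targeted gene, had 353 and 384 CPM in WT and 342 and 338 CPM in Foxp1-deficient rTreg cells (log2 fold change −0.12, SE 0.094, adjusted p = 0.460). In aTreg cells, Foxp1 had 234 and 230 CPM in WT and 126 and 102 CPM in Foxp1-deficient cells (log2 fold change −1.03, SE 0.096, adjusted p = 0.00194). The count covers the whole gene and does not read the floxed part alone, so in rTreg cells it did not check the genotype label.

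Many regulators of the pathway carry κB sites, the decamers bound by NF-κB dimers, close to their start, and the promoters are shown here for that reason. RefSeq promoters of GRCm38.p6 from 250 bases before to 50 bases after the start were held for 7 of the 10 genes. The κB consensus, searched on both strands, was present in 8 of the 10 promoters of these 7 genes and in 6 of the 7 genes, the exception being Rela. Among all 32851 promoters of the same length, 8.46% held it, and 9.55% of 27025 genes had at least 1 such promoter. These shares were not matched for GC content, which was between 47.0% and 75.0% in the 10 promoters. Of the 10, 3 belong to Nfkb2. In the promoters below, given 5′ to 3′ on the strand of the gene, capitals mark the κB consensus.
Nfkb2, first of 3 promoters, chr19:46304487-46304786, plus strand: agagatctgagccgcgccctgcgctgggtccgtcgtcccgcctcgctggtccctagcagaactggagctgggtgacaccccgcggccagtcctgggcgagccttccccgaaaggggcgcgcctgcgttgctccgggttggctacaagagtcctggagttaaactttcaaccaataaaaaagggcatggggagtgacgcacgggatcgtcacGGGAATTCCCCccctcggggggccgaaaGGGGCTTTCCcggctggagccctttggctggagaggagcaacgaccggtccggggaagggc
Nfkbia, chr12:55492598-55492897, minus strand: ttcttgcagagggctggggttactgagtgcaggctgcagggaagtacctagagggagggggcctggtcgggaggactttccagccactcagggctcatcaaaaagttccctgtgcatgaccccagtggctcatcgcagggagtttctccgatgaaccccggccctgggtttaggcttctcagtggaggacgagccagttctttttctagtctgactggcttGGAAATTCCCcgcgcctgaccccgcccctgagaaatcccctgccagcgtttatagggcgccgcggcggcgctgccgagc
Nfkbie, chr17:45555450-45555749, plus strand: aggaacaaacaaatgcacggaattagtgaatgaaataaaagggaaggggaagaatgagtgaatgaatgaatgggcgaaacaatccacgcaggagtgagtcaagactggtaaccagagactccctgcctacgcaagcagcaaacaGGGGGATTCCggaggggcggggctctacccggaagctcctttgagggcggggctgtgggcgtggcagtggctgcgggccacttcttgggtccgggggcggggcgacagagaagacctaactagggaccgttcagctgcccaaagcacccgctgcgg
Tnfaip3, first of 2 promoters, chr10:19015361-19015660, minus strand: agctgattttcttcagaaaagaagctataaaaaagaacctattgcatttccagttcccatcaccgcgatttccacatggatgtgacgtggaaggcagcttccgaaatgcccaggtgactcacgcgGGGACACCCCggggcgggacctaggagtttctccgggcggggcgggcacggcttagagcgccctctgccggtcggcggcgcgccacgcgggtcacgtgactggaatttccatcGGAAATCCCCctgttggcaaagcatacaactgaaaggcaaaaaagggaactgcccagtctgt
The first Nfkb2 promoter held overlapping matches in GGGAATTCCCC, beginning 39 and 38 bases before the start, and GGGGCTTTCC, beginning 11 bases before it. The other 2 Nfkb2 promoters overlap each other and share GGGACTTTCC. Nfkbia held GGAAATTCCC, beginning 29 bases before its start, and Nfkbie held GGGGGATTCC, beginning 106 bases before. Tnfaip3, which encodes the ubiquitin-editing enzyme A20, held GGGACACCCC, 125 bases before, and GGAAATCCCC, 12 bases before. Rel, which passed in no genotype or subset comparison, also held a match, GGGAAATCCCC, beginning 92 bases before its start, as did Bcl3 with GGGAAGTCCC at base 3 of the transcript. Matches were held both by genes that changed between subsets and by genes that did not pass that test. The forkhead core TAAACA, of the family to which Foxp1 belongs, was found on either strand in 1 of the 10 promoters, the second of Tnfaip3, and in 13.4% of all promoters. A match is a description of the sequence and not a measured site.

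**Figure D1:**
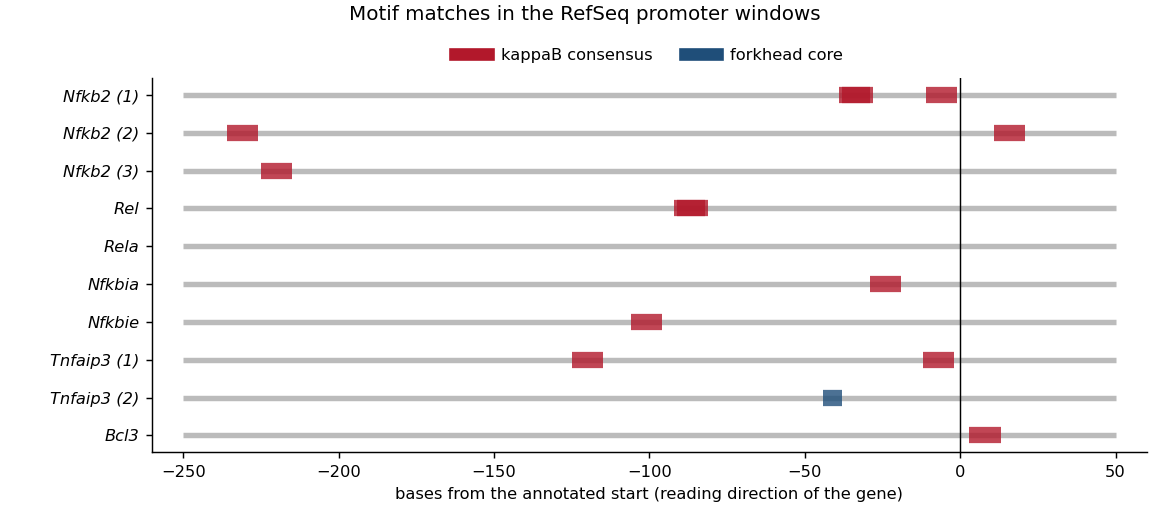
Positions of κB consensus matches (red) and forkhead core matches (blue) in the 10 RefSeq promoter windows of 7 genes, with the horizontal axis in bases from the annotated start. Matches to the κB consensus lie in 8 windows, and the only forkhead core lies in the second Tnfaip3 window.

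Of the canonical subunits, Nfkb1 and Rela had the smallest SD within groups of the 10 genes (0.064 and 0.075 on the log2 scale), and Rel had a larger one (0.28). Nfkb1, which encodes p105 and its product p50 (chr3:135584655-135691547, minus strand), had 509 and 554 CPM in WT rTreg, 549 and 579 in Foxp1-deficient rTreg, 631 and 603 in WT aTreg, and 663 and 704 CPM in Foxp1-deficient aTreg cells. All 4 aTreg libraries were above all 4 rTreg libraries. Rela, which encodes the transactivating subunit p65 (chr19:5637483-5648130, plus strand), had 196 and 192, 189 and 179, 204 and 179, and 203 and 193 CPM in the same order of groups. Its range of 0.19 on the log2 scale over the 8 libraries was the narrowest of the 10 genes. Rel (chr11:23736847-23770970, minus strand) had 196 and 165 CPM in WT rTreg, 185 and 171 in Foxp1-deficient rTreg, 218 and 142 in WT aTreg, and 189 and 144 CPM in Foxp1-deficient aTreg cells. For Rel, replicate 1 was above replicate 2 in every group, and the groups overlapped in every comparison.

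The subunits of the noncanonical pathway also separated the subsets, as Nfkb1 did. Nfkb2 (chr19:46304320-46312385, plus strand) had 148 and 150 CPM in WT rTreg, 173 and 194 in Foxp1-deficient rTreg, 248 and 212 in WT aTreg, with 240 and 263 CPM in aTreg cells lacking Foxp1. The WT rTreg libraries were the lowest pair and the Foxp1-deficient rTreg libraries lay between them and all aTreg libraries. Nfkb2 shares 299 exonic bases with Psd on the opposite strand, which had between 258 and 743 counts per library, and 531 with the noncoding gene AC114539.1, also on the opposite strand, and since the strand setting of the counting was not given in the sources used here, reads in these stretches cannot be assigned to either gene. Relb (chr7:19606217-19629438, minus strand) had 76.4 and 72.7 CPM in WT rTreg, 80.3 and 70.8 in Foxp1-deficient rTreg, 145 and 110 in WT aTreg, and 128 and 104 CPM in Foxp1-deficient aTreg cells. Every aTreg library was above every rTreg library, and the genotypes overlapped within each subset.

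Among the IκB proteins, Nfkbia encodes IκBα, the inhibitor that ends a response once NF-κB has induced it (chr12:55489410-55492647, minus strand). It had 507 and 332 CPM in WT rTreg, 455 and 277 in Foxp1-deficient rTreg, 636 and 400 in WT aTreg, and 514 and 365 CPM in Foxp1-deficient aTreg cells. Replicate 1 was above replicate 2 in every group, and the groups overlapped, although within each replicate number both aTreg libraries were above the rTreg library of their genotype. Nfkbie encodes IκBε, a second and slower feedback inhibitor (chr17:45555703-45563169, plus strand). It had 53.8 and 40.7 CPM in WT rTreg, 61.5 and 68.2 in Foxp1-deficient rTreg, 96.7 and 66.1 in WT aTreg, with 93.1 and 85.2 CPM in aTreg cells lacking Foxp1. The lowest values were those of WT rTreg cells, and the Foxp1-deficient rTreg libraries did not overlap with them.

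Nuclear members of the IκB family, which modulate transcription by p50 or p52 rather than retaining NF-κB in the cytoplasm, followed other patterns. Nfkbiz, which encodes IκBζ (chr16:55811375-55838899, minus strand), had 461 and 240 CPM in WT rTreg, 373 and 184 in Foxp1-deficient rTreg, 350 and 189 in WT aTreg, with 326 and 170 CPM in aTreg cells lacking Foxp1. The WT rTreg library was the highest within each replicate number, and replicate 1 was the higher in each group. Bcl3 (chr7:19808462-19822770, minus strand) had 76.6 and 59.9, 81.4 and 69.3, 86.2 and 64.4, and 90.5 and 83.7 CPM in that order of groups. Its highest group was Foxp1-deficient aTreg cells, whose libraries were above both Foxp1-deficient rTreg libraries.

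Tnfaip3 (chr10:19000910-19015657, minus strand) differed most between libraries. It had 1495 and 332 CPM in WT rTreg, 1576 and 243 in Foxp1-deficient rTreg, 1645 and 536 in WT aTreg, and 1426 and 433 CPM in Foxp1-deficient aTreg cells. Every replicate 1 library was far above every replicate 2 library, and all groups overlapped. The range of its levels was 2.76 on the log2 scale. Its SD within groups, 1.48 on that scale, was larger than that of 98.2% of the genes tested.

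**Figure D2:**
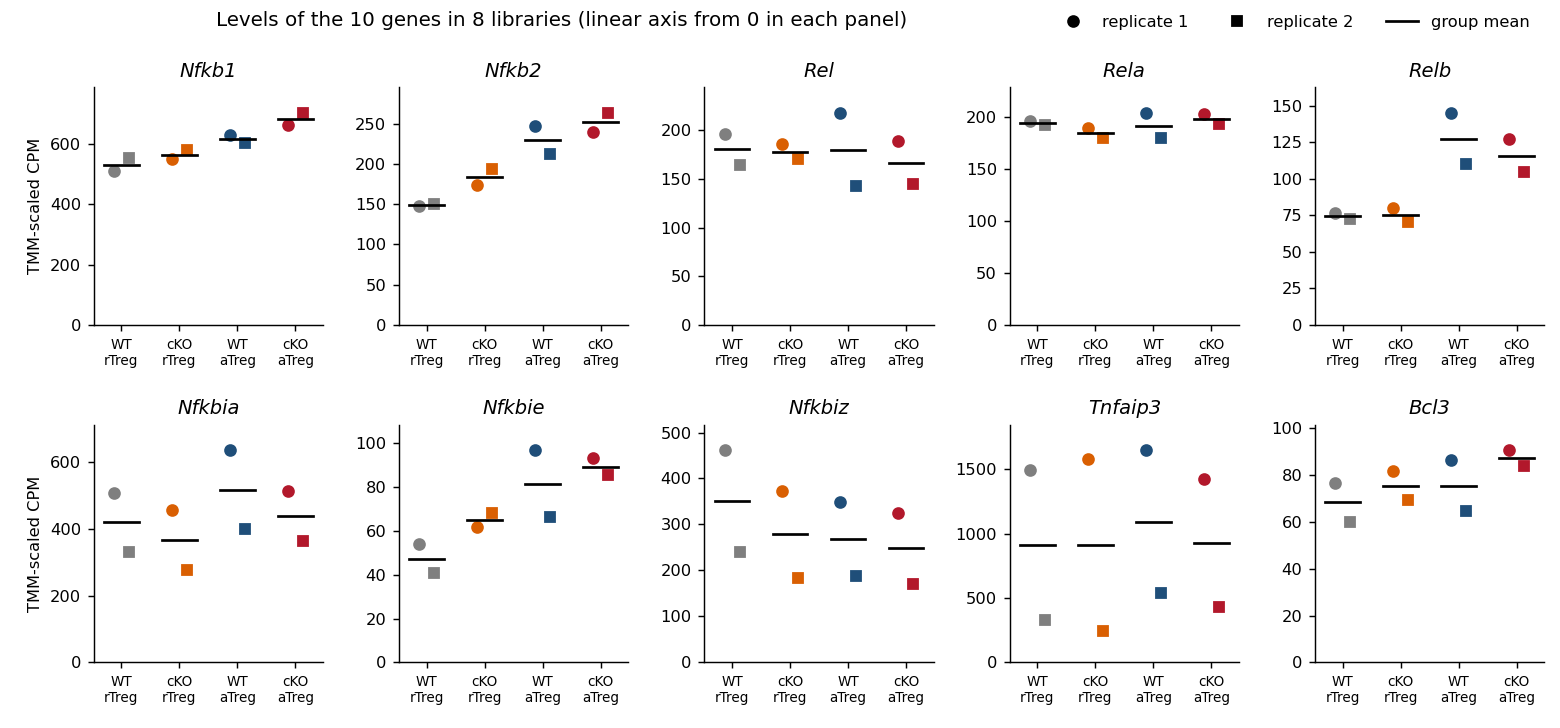
CPM of the 10 genes (vertical axes, linear and from 0) in the 4 groups, with replicate 1 as circles, replicate 2 as squares and a line at the mean of each group. Nfkb1, Nfkb2 and Relb are higher in all 4 aTreg than in all 4 rTreg libraries. Tnfaip3, Nfkbiz and Nfkbia are higher in replicate 1 than in replicate 2 of every group, as are Rel, Rela, Relb and Bcl3.

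Per gene length, Nfkbia had the highest mean FPKM of the 10 genes in all 4 groups, between 222 ± 79.9 (SD, n = 2) in Foxp1-deficient rTreg cells and 330 ± 108 (SD, n = 2) in WT aTreg cells. Tnfaip3 came second by its mean in each group, between 124 ± 129 and 155 ± 112 FPKM (SD, n = 2), but in replicate 2 libraries alone it had between 32.4 and 75.8 FPKM, near or below Rela at between 63.5 and 69.8 FPKM. Rela, Nfkb2, Nfkbiz and Nfkb1 formed the middle of the order, with group means between 43.6 and 76.9 FPKM, and neighbours among them did not all differ beyond their spread. Bcl3, Nfkbie, Rel and Relb were the lowest in every group, with means between 19.0 and 37.1 FPKM. Relb was the lowest in rTreg cells, at 19.0 ± 1.11 FPKM in WT and 19.0 ± 1.98 FPKM in Foxp1-deficient cells (SD, n = 2), and Rel was the lowest in aTreg cells, at 24.7 ± 7.45 and 22.5 ± 5.0 FPKM (SD, n = 2). The lengths behind the FPKM values of Nfkb2 (3289 bases), Rela (2716) and Nfkbie (2422) are shorter than the merged exons of GENCODE M21 (4584, 3072 and 3045 bases). Dividing by the merged exons instead would lower the FPKM of each by a factor that is the same in every library. That factor differs between these genes, so it would shift the order of genes and the size of ratios, but not the order of libraries within a ratio.

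The composition of the family within a library was read from ratios of FPKM. The ratio of Nfkb2 to Nfkb1 was 1.07 and 0.994 in WT rTreg, 1.16 and 1.23 in Foxp1-deficient rTreg, 1.44 and 1.29 in WT aTreg, with 1.33 and 1.37 in aTreg cells lacking Foxp1. The Foxp1-deficient rTreg libraries thus stood between WT rTreg and aTreg libraries without overlap. The ratio of Relb to Rela was 0.273 and 0.264 in WT rTreg, 0.298 and 0.277 in Foxp1-deficient rTreg, 0.499 and 0.430 in WT aTreg, and 0.440 and 0.379 in Foxp1-deficient aTreg cells. It separated the subsets, with the Foxp1-deficient rTreg libraries just above the WT ones. The ratio of Rel to Rela, between 0.272 and 0.389, overlapped across all groups. For Nfkbie over Rela, the ratio was 0.308 and 0.237 in WT rTreg, 0.366 and 0.427 in Foxp1-deficient rTreg, 0.533 and 0.414 in WT aTreg, with 0.515 and 0.496 in aTreg cells lacking Foxp1. These ratios are descriptions, and no test was run on them.

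**Figure D3:**
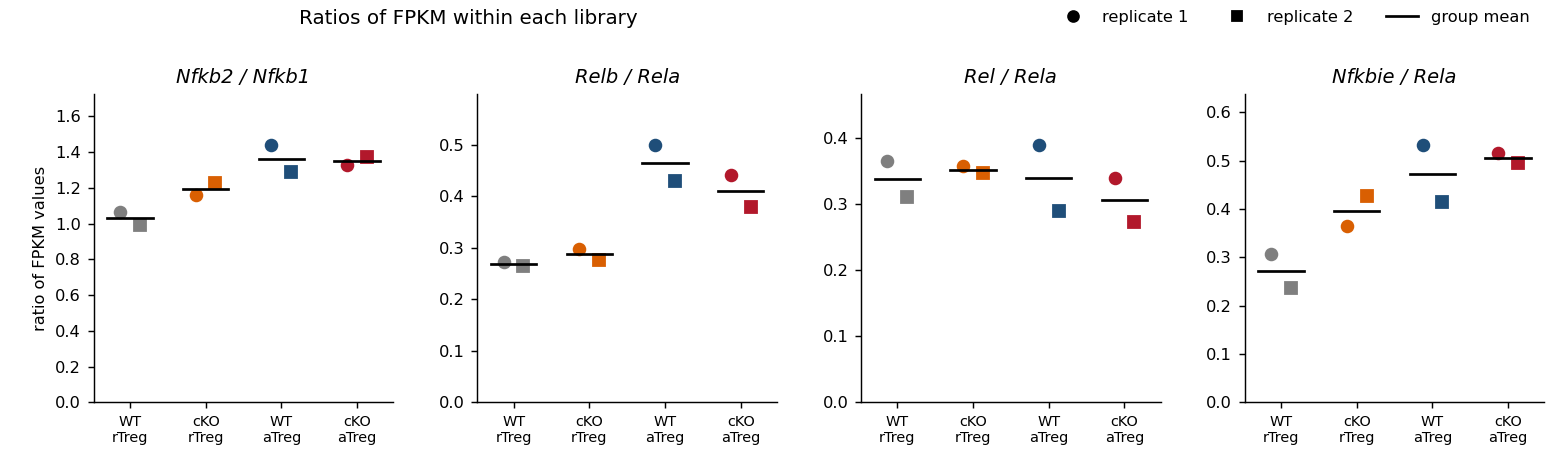
Ratios of FPKM values within each library (vertical axes, linear and from 0) in the 4 groups, with replicate 1 as circles, replicate 2 as squares and a line at the group mean. Relb over Rela is between 0.264 and 0.298 in rTreg and between 0.379 and 0.499 in aTreg libraries, whereas Rel over Rela overlaps across the groups.

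The first comparison asked how the pathway differs between the subsets. In WT cells, 5 of the 10 genes were up-regulated and 1 was down-regulated in aTreg against rTreg cells at an adjusted p under 0.05, where 18.2% of all genes tested were up-regulated and 13.6% down-regulated. Up-regulation was largest for Nfkbie (log2 fold change 0.77, SE 0.15, adjusted p = 0.00587), Relb (0.76, SE 0.085, adjusted p = 4.46e-04) and Nfkb2 (0.62, SE 0.095, adjusted p = 0.00204), and smaller for Nfkbia (0.30, SE 0.064, adjusted p = 0.0101) and Nfkb1 (0.22, SE 0.058, adjusted p = 0.0257). Nfkbiz fell by 0.37 on the log2 scale (SE 0.056, adjusted p = 0.00198). None reached the 2-fold change that was also asked of a called gene, which 12.3% of all genes met together with the adjusted p. By edgeR, 6 of the 10 had an unadjusted p under 0.05, and DESeq2 and limma-voom also called 0. The log2 fold changes of Rel (−0.03), Rela (−0.02), Bcl3 (0.14) and Tnfaip3 (0.43, 95% interval −0.09 to 0.94) did not pass. The median over the 10 genes was 0.26, against −0.0046 for all genes tested. In bulk samples, a change in the share of cells that express a gene and a change in RNA per cell cannot be told apart.

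Within each replicate number the changes had the same direction. Relb was higher in WT aTreg cells by 0.93 in replicate 1 and 0.60 in replicate 2 on the log2 scale, Nfkbie by 0.85 and 0.70, and Nfkb2 by 0.74 and 0.50. For Nfkbia the differences were 0.33 and 0.27, and Nfkbiz fell by 0.40 and 0.34. That Nfkbia, Nfkbiz and Nfkb1 passed the adjusted p rested on this pairing. Without the replicate block their adjusted p was 0.612, 0.675 and 0.137, and 3 genes remained higher (Nfkb2, Relb and Nfkbie). Nfkb1 did not pass without WT rTreg replicate 1 (adjusted p = 0.161), WT rTreg replicate 2 (0.0569) or WT aTreg replicate 1 (0.190), nor did Nfkbia without the same libraries (0.0611, 0.0540 and 0.0671), nor Nfkbie without WT rTreg replicate 2 (0.0536). Relb and Nfkb2 passed in all 18 alternatives.

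In Foxp1-deficient cells, 5 of the 10 genes were up-regulated and 0 down-regulated in aTreg against rTreg cells at an adjusted p under 0.05, where 21.9% and 18.2% of all genes were. They were Relb (log2 fold change 0.61, SE 0.085, adjusted p = 9.70e-04), Nfkb2 (0.45, SE 0.095, adjusted p = 0.00684), Nfkbie (0.43, SE 0.15, adjusted p = 0.0463), Nfkbia (0.29, SE 0.064, adjusted p = 0.00928) and Nfkb1 (0.28, SE 0.058, adjusted p = 0.00724). Nfkbiz had a log2 fold change of −0.16 (adjusted p = 0.0599), Bcl3 of 0.21 (adjusted p = 0.0782) and Tnfaip3 of 0.31 (adjusted p = 0.301). None was called with the 2-fold threshold as well, which 15.7% of all genes were, while 7 had an unadjusted p under 0.05 by edgeR, and DESeq2 and limma-voom called 0. The median over the 10 genes was 0.28, against −0.018 for all genes.

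For some of the genes, passing the adjusted p was less firm than in WT cells. Without the replicate block 2 genes remained (Relb and Nfkb2), and the adjusted p was 0.0531 for Nfkb1, 0.627 for Nfkbia and 0.149 for Nfkbie. Nfkbie also missed the threshold with limma-voom (adjusted p = 0.0545), on both log2 FPKM scales (0.0551 and 0.0537), without Foxp1-deficient rTreg replicate 1 (0.268) and without Foxp1-deficient aTreg replicate 1 (0.0886) or replicate 2 (0.252). Nfkb1 and Nfkb2 missed it without Foxp1-deficient rTreg replicate 1 (0.0520 and 0.0613) and aTreg replicate 2 (0.0569 and 0.0701), and Nfkbia without rTreg replicate 2 (0.0979) and aTreg replicate 2 (0.0767). Conversely, Bcl3 passed without aTreg replicate 1 (0.33, adjusted p = 0.0363), with no filter on low counts (0.0405), in the 4 libraries alone (0.0106) and on both log2 FPKM scales (0.0431 and 0.0432). Tnfaip3 passed without rTreg replicate 1 (0.79, adjusted p = 0.0172), with no filter (0.0212) and in the 4 libraries alone (2.94e-05), and in WT cells with no filter (0.00495) and in the 4 libraries alone (0.0170). Relb passed in all 18 alternatives.

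**Figure D4:**
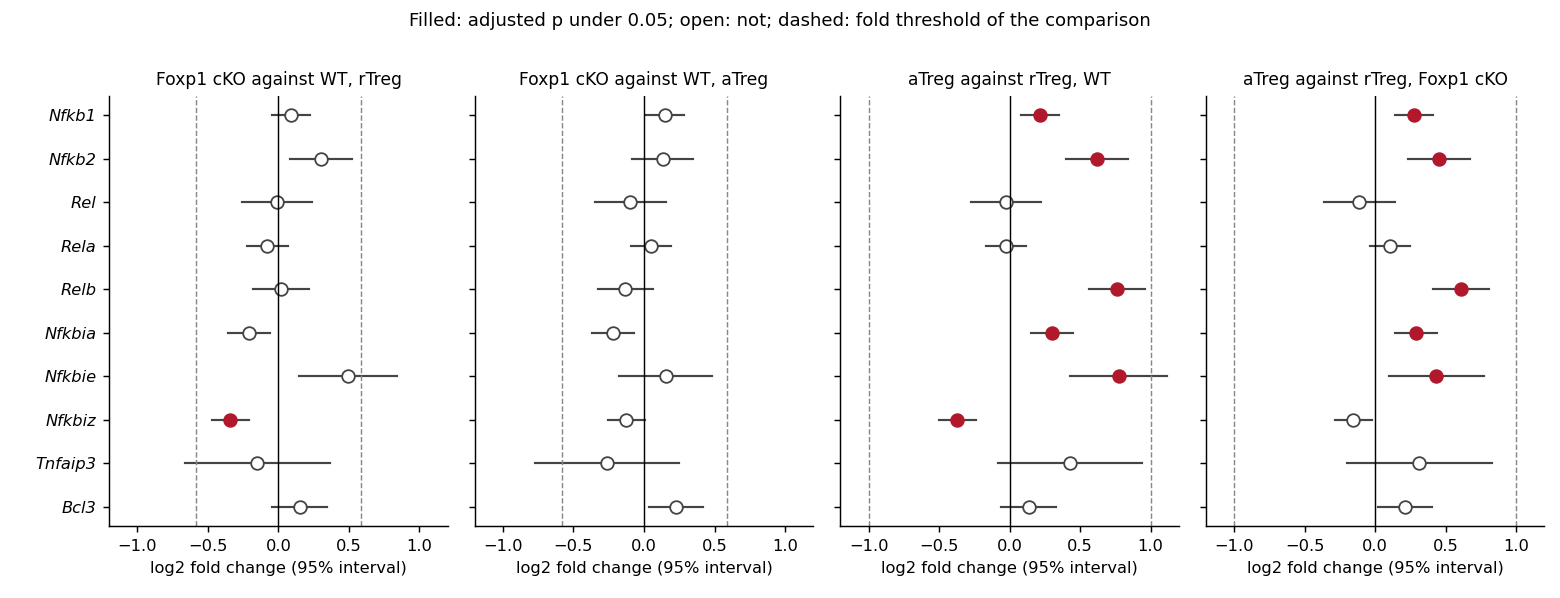
Log2 fold changes with 95% intervals (horizontal axes) of the 10 genes in 4 comparisons, filled where the adjusted p is under 0.05, with dashed lines at the fold threshold of each comparison. Nfkb1, Nfkb2, Relb, Nfkbia and Nfkbie are filled on the right in both subset comparisons, and Nfkbiz is the only filled gene between genotypes.

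The second comparison asked whether loss of Foxp1 changes the pathway. In rTreg cells, 1 of the 10 genes was down-regulated and 0 were up-regulated in Foxp1-deficient against WT cells at an adjusted p under 0.05, where 5.45% and 6.57% of all genes were. That gene was Nfkbiz, which fell by 0.34 on the log2 scale (SE 0.056, adjusted p = 0.0103), by 0.30 in replicate 1 and 0.38 in replicate 2. Nfkbie (0.49, SE 0.15, adjusted p = 0.0745), Nfkb2 (0.30, SE 0.095, adjusted p = 0.0810) and Nfkbia (−0.21, SE 0.064, adjusted p = 0.0772) lay close to the threshold without passing it. For the other 6 genes the log2 fold changes lay between −0.15 (Tnfaip3) and 0.15 (Bcl3). None reached 1.5-fold with an adjusted p under 0.05, which 5.6% of all genes did, while 4 had an unadjusted p under 0.05 by edgeR, and DESeq2 and limma-voom called 0. The median of the 10 genes was 0.0044, against 0.0029 for all genes.

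The genotype results in rTreg cells turned on single libraries. Without the replicate block the adjusted p of Nfkbiz was 0.812, and it was 0.0650 without WT rTreg replicate 1, 0.0756 without WT rTreg replicate 2 and 0.119 without Foxp1-deficient rTreg replicate 2. Nfkbie rose past the 1.5-fold threshold without Foxp1-deficient rTreg replicate 1, the shallowest library (0.71, adjusted p = 0.0457), and passed the adjusted p without WT aTreg replicate 1 (0.0448) or replicate 2 (0.0454). Nfkb2 likewise passed without WT aTreg replicate 1 (0.0277) or replicate 2 (0.0264). Fitting the 4 rTreg libraries alone also let Nfkb2 (0.0248) and Nfkbie (0.0436) pass. The intervals of the fold change, 0.08 to 0.52 for Nfkb2 and 0.14 to 0.84 for Nfkbie on the log2 scale, lay above 0 before adjustment.

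In aTreg cells, 0 of the 10 genes were up-regulated and 0 down-regulated between genotypes at an adjusted p under 0.05, where 4.11% and 2.77% of all genes were, and 4.03% were called with the 1.5-fold threshold. By edgeR, 3 had an unadjusted p under 0.05, namely Nfkbia (−0.22, SE 0.064, adjusted p = 0.0883), Bcl3 (0.23, SE 0.083, adjusted p = 0.151) and Nfkb1 (0.15, SE 0.058, adjusted p = 0.183), and DESeq2 and limma-voom called 0. For Nfkb1, Rela and Relb the 95% intervals stayed within 0.33 of 0 on the log2 scale, from 0.01 to 0.28, −0.09 to 0.19 and −0.32 to 0.06. For Tnfaip3 the interval was wide, from −0.78 to 0.25. The median was −0.023, against 0.0018 for all genes.

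The genotype effect was not shown to differ between the subsets for any of the 10 genes. In the interaction term, 0 of them had an adjusted p under 0.05, where 0.33% of all genes did, and DESeq2 and limma-voom also gave 0. The only unadjusted p under 0.05 by edgeR was that of Nfkbiz (difference 0.22, SE 0.080, adjusted p = 0.308). For Nfkbie the difference between the genotype effects was −0.34 with a 95% interval from −0.82 to 0.14.

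The genes around the 10 were read from fixed lists, in aTreg against rTreg cells of WT mice first. Of the 22 upstream receptors and adaptors tested, 12 were up-regulated and 3 down-regulated at an adjusted p under 0.05, beside 18.2% and 13.6% of all genes, with the largest changes for receptors. Il1rl1, which encodes the IL-33 receptor ST2, rose by 3.64 on the log2 scale (adjusted p = 6.47e-06), Tnfrsf1b, which encodes TNFR2, by 2.17 (adjusted p = 1.97e-05) and Il18r1, the IL-18 receptor, by 2.00 (adjusted p = 1.03e-04). Il1r1, the IL-1 receptor, had 0 and 2 counts in WT rTreg and 17 and 32 counts in WT aTreg cells. Of the 21 kinases and ubiquitin enzymes that carry the signal to IκB, 3 were up-regulated and 7 down-regulated, the first being near the share of all genes, and none reached 2-fold. Their median was −0.12, against 0.31 for the receptors and adaptors.

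Of the 21 other inhibitors, 9 were up-regulated and 3 down-regulated in WT aTreg cells, the second near the 13.6% of all genes. Nlrx1 rose by 1.37 (adjusted p = 5.73e-04), and Trib3 fell by 1.52 (adjusted p = 0.00333). Tnip3, whose product binds A20, had 4 and 3 counts in WT rTreg and 14 and 26 counts in WT aTreg cells. Of the 35 known targets, 16 were up-regulated and 6 down-regulated, the second again near that share. Cd83, a surface protein of activated lymphocytes, rose by 3.31 (adjusted p = 4.94e-06). The chemokine gene Ccl5 rose by 4.39 (adjusted p = 4.34e-04), from 9 and 5 to 118 and 193 counts. Ebi3, which encodes a subunit of IL-35, rose from 0 and 4 to 153 and 224 counts. Il10 had 0 and 1 counts in WT rTreg and 352 and 148 counts in WT aTreg cells. Several of these targets also mark activated Treg cells or B cells, and the B cell markers were higher in aTreg cells by the amounts given above.

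In Foxp1-deficient cells, where 21.9% of all genes were up-regulated and 18.2% down-regulated, the same lists gave 11 up-regulated and 3 down-regulated of 22 receptors and adaptors, 3 and 9 of 21 kinases and ubiquitin enzymes, 10 and 2 of 21 other inhibitors, and 16 and 9 of 35 targets. The kinases up-regulated and the receptors and inhibitors down-regulated were below the share of all genes. Il1rl1 rose by 6.48 (adjusted p = 1.79e-06), Il18r1 by 2.37 (adjusted p = 3.28e-05) and Tnfrsf1b by 2.20 (adjusted p = 1.25e-05). Il1r1 had 3 and 4 counts in rTreg and 34 and 28 counts in aTreg cells. Its rise of 2.72 (adjusted p = 0.00559) did not pass without Foxp1-deficient rTreg replicate 2. Malt1, the paracaspase that links the antigen receptor to IKK, was the only gene of its list past 2-fold (1.07, adjusted p = 2.12e-05). Among inhibitors, N4bp1 rose by 1.37 (adjusted p = 2.98e-05) and Rnf11, a partner of A20, by 1.15 (adjusted p = 3.96e-04), Trib3 fell by 1.45 (adjusted p = 0.00646), and Tnip3 had 2 and 1 counts in rTreg and 18 and 24 in aTreg cells. Among targets, the chemokine receptor gene Cxcr5 rose by 3.80 (adjusted p = 1.79e-06). Ccl5 rose by 4.47 (adjusted p = 1.91e-04), from 1 and 19 counts in rTreg to 184 and 364 in aTreg cells. Ebi3 rose by 4.34 (adjusted p = 5.92e-05), from 5 and 13 to 241 and 236 counts. Il10 had 2 and 2 counts in rTreg and 293 and 100 counts in aTreg cells.

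Between genotypes the same lists had 22, 21, 21 and 35 genes tested. In rTreg cells, where 6.57% of all genes were up-regulated and 5.45% down-regulated, 1 receptor or adaptor was up-regulated and 2 were down-regulated, with 1 and 0 kinases or ubiquitin enzymes, 2 and 4 other inhibitors, and 6 and 4 targets. Icam1, which encodes an adhesion molecule, rose by 1.16 (adjusted p = 0.00277), Lta, which encodes lymphotoxin α, by 0.76 (adjusted p = 0.00745) and Nlrx1 by 0.89 (adjusted p = 0.0169). Il1rl1 fell by 1.94 (adjusted p = 0.00523), Cxcr5 by 1.32 (adjusted p = 0.00176), Cd83 by 0.89 (adjusted p = 0.0126) and Zc3h12d by 0.68 (adjusted p = 0.0118). Il1rl1 had 51 and 74 counts in WT and 9 and 21 counts in Foxp1-deficient rTreg cells. On log2 FPKM plus 1 its change was −0.54 and did not pass (adjusted p = 0.217). In aTreg cells, where 4.11% and 2.77% of all genes were, the counts were 2 and 2 for receptors and adaptors, 0 and 0 for kinases and ubiquitin enzymes, 0 and 0 for other inhibitors, and 2 and 5 for targets. Icam1 rose by 0.67 (adjusted p = 0.0250), Il18r1 by 0.90 (adjusted p = 0.0167) and Il1rl1 by 0.91 (adjusted p = 0.00524), while the chemokine receptor gene Ccr7 fell by 1.56 (adjusted p = 5.98e-04) and Tnfrsf1a, which encodes TNFR1, by 0.59 (adjusted p = 0.0247). Ier3 had 3 and 1 counts in WT and 20 and 12 counts in Foxp1-deficient aTreg cells. Cxcr5 and Icam1 in rTreg cells and Ccr7 in aTreg cells passed in all 18 alternatives. In rTreg cells, the adjusted p without single libraries reached 0.178 for Nlrx1 and 0.158 for Il1rl1 without Foxp1-deficient replicate 2, 0.0706 for Cd83 and 0.0870 for Zc3h12d without WT replicate 2, and 0.0738 for Lta without Foxp1-deficient replicate 2. In aTreg cells it reached 0.219 for Icam1, 0.231 for Tnfrsf1a and 0.111 for Il1rl1 without Foxp1-deficient replicate 2, and 0.123 for Il18r1 without WT replicate 2. Without the replicate block, Il1rl1 (0.163), Nlrx1 (0.0695) and Zc3h12d (0.0594) in rTreg cells and Il1rl1 (0.351), Il18r1 (0.129), Tnfrsf1a (0.135) and Icam1 (0.110) in aTreg cells did not pass. The comparisons share libraries, so their values stand side by side and no overlap between them was computed.

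Since the levels of several of the 10 genes moved with the replicate number, replicate 2 was set against replicate 1 over all 4 groups in the same fit, a comparison chosen after the values were seen. At an adjusted p under 0.05, 6 of the 10 genes were lower in replicate 2 and 0 were higher, where 8.71% and 9.79% of all genes were. Tnfaip3 fell by 2.05 on the log2 scale (SE 0.16, adjusted p = 5.84e-04), Nfkbiz by 0.95 (SE 0.040, adjusted p = 3.27e-05) and Nfkbia by 0.62 (SE 0.046, adjusted p = 3.94e-04). Rel (−0.35, adjusted p = 0.0205), Bcl3 (−0.28, adjusted p = 0.0182) and Relb (−0.24, adjusted p = 0.0316) were lower by less. Each missed the adjusted p in several fits that left out 1 library. In those fits the log2 fold changes lay between −0.42 and −0.25 for Rel, −0.33 and −0.22 for Bcl3, and −0.29 and −0.17 for Relb. Nfkb1 (0.05), Nfkb2 (0.02), Rela (−0.09) and Nfkbie (−0.24) did not pass. The CPM of Tnfaip3 in replicate 1 was 4.50 times that in replicate 2 in WT rTreg, 6.48 in Foxp1-deficient rTreg, 3.07 in WT aTreg and 3.29 times in Foxp1-deficient aTreg cells. For Nfkbiz the same ratio lay between 1.85 and 2.03, and for Nfkbia between 1.41 and 1.65.

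Immediate early genes, which dissociation and handling of cells are known to induce, moved with them. Of 16 such genes, 11 were lower in replicate 2 and 1, the heat shock gene Hspa1b, was higher, though not without WT rTreg replicate 1 (adjusted p = 0.0642) or replicate 2 (0.0642) or any of the 4 Foxp1-deficient libraries (0.113 to 0.124). Dusp1 was lower by 1.96, Nr4a1 by 1.79, Fosb by 1.66, Jun by 1.11 and Fos by 1.06 on the log2 scale, and Egr1, at a difference of 0.0015, was level. The summed CPM of the 16 genes was 6328 and 3098 in WT rTreg, 5658 and 2511 in Foxp1-deficient rTreg, 8091 and 3864 in WT aTreg, with 6263 and 3140 CPM in aTreg cells lacking Foxp1. The replicate numbers also differed in sex, since Xist had between 0 and 3 counts in replicate 1 and between 15098 and 21822 in replicate 2 libraries. Sex and anything else that differed between the replicate numbers cannot be told apart here. Within the genotype comparisons, Fosb and Dusp1 were lower in Foxp1-deficient cells in rTreg (−0.73 and −0.62, adjusted p = 0.0102 and 0.0201) and in aTreg cells (−0.59 and −0.63, adjusted p = 0.0239 and 0.0263), as was Jun in aTreg cells (−0.91, adjusted p = 8.73e-04). This stands beside the fall of Nfkbiz in Foxp1-deficient rTreg cells, and the part of these genes in it was not tested. None of these 3 genes passed without the block (adjusted p between 0.639 and 0.912). Fosb and Dusp1 also missed the threshold in at least 1 fit that left out a library of the comparison, Dusp1 for example at 0.134 without WT rTreg replicate 2 and 0.157 without WT aTreg replicate 2, and Fosb at 0.116 without Foxp1-deficient rTreg replicate 2 and 0.197 without Foxp1-deficient aTreg replicate 2. Between subsets, 8 of the 16 were higher and 3 lower in WT aTreg cells, where 18.2% and 13.6% of all genes were. In Foxp1-deficient aTreg cells, 8 were higher and 4 lower, where 21.9% and 18.2% of all genes were. The counts of lower genes were not far from these shares. This stands beside the higher Nfkbia, and the part of these genes in it was not tested. Fosb, which was lower in replicate 2, rose by 1.53 in WT and 1.66 in Foxp1-deficient cells (adjusted p = 7.90e-05 and 3.96e-05). It did not pass without the block (0.319 and 0.221). Egr2, which did not pass in the replicate comparison, rose by 1.32 and 1.82, while Jun fell by 0.26 (adjusted p = 0.0215) and 0.88 (adjusted p = 5.29e-05).

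**Figure D5:**
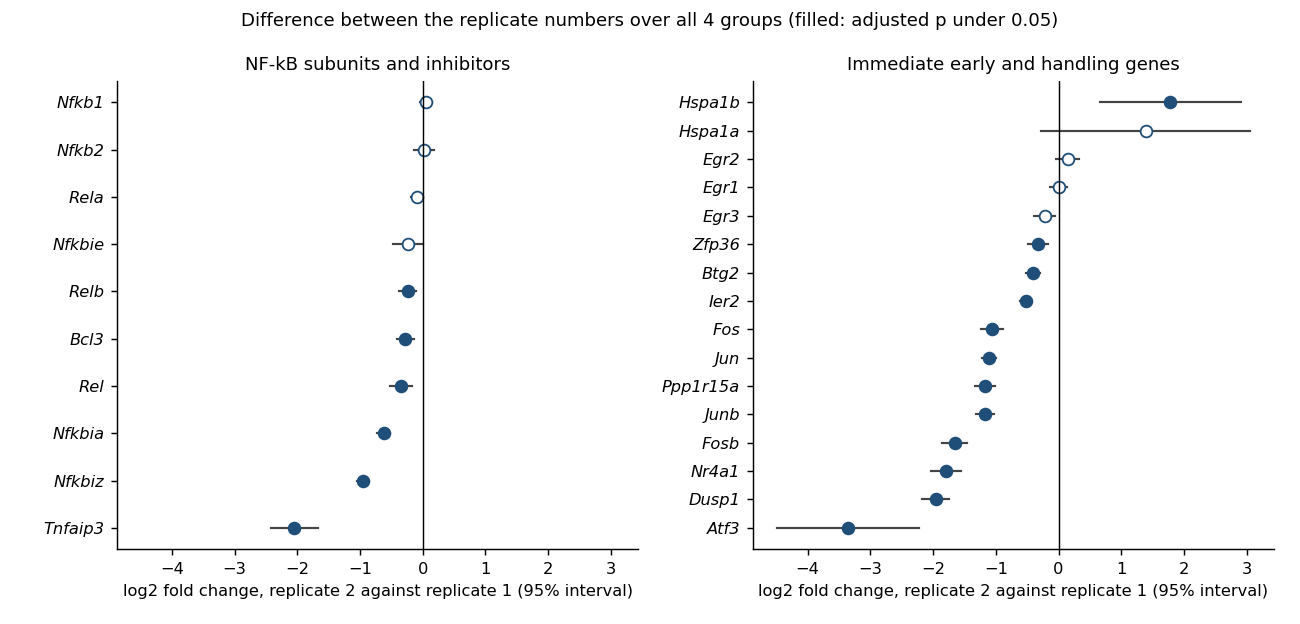
Log2 fold changes of replicate 2 against replicate 1 over the 4 groups, with 95% intervals (horizontal axis), for the 10 genes on the left and 16 immediate early and handling genes on the right, filled where the adjusted p is under 0.05. Tnfaip3, Nfkbiz and Nfkbia are the lowest of the 10 genes, and Nfkb1, Nfkb2 and Rela lie near 0.

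Known targets also moved with the replicate number. Of the 35 targets, 11 were lower and 3 higher in replicate 2, beside 8.71% and 9.79% of all genes, and the largest falls were those of Plk2 (−2.46, adjusted p = 3.94e-04), Il10 (−1.86, adjusted p = 0.00153), Gadd45b (−1.77, adjusted p = 3.27e-05) and Cd69 (−1.55, adjusted p = 5.92e-05). The fall of Il10 did not pass on log2 FPKM plus 1 (−0.91, adjusted p = 0.162) or plus 0.1 (−0.97, adjusted p = 0.205). Of the 21 other inhibitors, 4 were lower and 3 higher, with Nfkbid, which encodes the nuclear inhibitor IκBNS, at −0.76 (adjusted p = 0.00483) and Zc3h12a, which encodes the RNase Regnase-1, at −0.51 (adjusted p = 8.31e-04). These genes were named for the size of their difference after their values were seen.

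The mean profile of the 10 genes over the 8 libraries, on the log2 CPM scale with each gene centred on its mean, was matched against 8959 other genes with at least 10 CPM on average. The closest by root mean square difference were Dph3 (0.052), Zc3h12a (0.056), Manbal (0.061), Gm5527 (0.073) and Rabl3 (0.077). All were higher in replicate 1 than in replicate 2 of every group. Zc3h12a is also on the list of other inhibitors, and it rose by 0.29 in WT aTreg cells (adjusted p = 0.0103). The single genes lay farther from their own mean profile, from 0.14 for Nfkbia and 0.15 for Bcl3 to 0.38 for Nfkbiz and 0.83 for Tnfaip3.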

How the data were processed

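Reads were trimmed with trim_galore, duplicates were removed with Picard and reads were counted with htseq-count by the authors; HISAT2 2.0.5 and mm10 are named in the submitters' processing notes, while the annotation release and the strand setting are not given in the sources used here. The authors deposited raw counts per gene and FPKM values made from the same counts. Counts were fitted in R 4.3.3 with edgeR 4.0.16 (glmQLFit and glmQLFTest, TMM, filterByExpr with a minimum count of 10) in one model of all 8 libraries with the replicate number as a block, following the study's paired analysis. Two-sided p-values were adjusted over 14540 genes (Benjamini-Hochberg). Calls needed an adjusted p under 0.05 together with a change of 1.5-fold between genotypes and 2-fold between subsets. The deviations of same-numbered libraries from their group means correlated at 0.412, 0.358, 0.551 and 0.501 over genes in the 4 comparisons, which have 2 pairs each. In simulated genotype changes in rTreg cells over 14140 genes, 61 of 63 genes changed 2-fold at 10 CPM or more were recovered, with 10 false calls. No change below 2-fold was simulated. Between genotypes in rTreg cells the 10 genes changed by at most 0.49 on the log2 scale, so recovery at that size was not measured.

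The 10 genes and the lists were chosen with earlier results of these data known. Named list genes are, per comparison, up to 4 called genes with the largest change in the same direction in both pairs. Alternatives were a fit without the block, limma-voom (limma 3.58.1), DESeq2 1.42.0, other scaling and filters, the libraries of a comparison alone, log2 FPKM plus a pseudocount of 1 or 0.1, removal of a gene-length trend and leaving out each library. Coordinates are those of GENCODE M21 on GRCm38, whose chromosome names match mm10, and promoters are those of RefSeq on GRCm38.p6. The list of resting markers is not reported here.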

Additional observations from a re-analysis of the deposited data

Results flagged for a closer look

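For none of the 10 NF-κB genes did the genotype effect differ between aTreg and rTreg cells at an adjusted p under 0.05. Among the other genes named, 3 had such a difference in edgeR's interaction term. For Il1rl1 the genotype effect in aTreg cells exceeded that in rTreg cells by 2.84 on the log2 scale (adjusted p = 0.0203), which did not pass without the replicate block (0.424) or without WT rTreg replicate 2 (0.0510), Foxp1-deficient rTreg replicate 1 (0.0967) or 2 (0.223), or Foxp1-deficient aTreg replicate 2 (0.129). For Ccr7 the difference was −1.08 (adjusted p = 0.0316), and for Foxp1 itself it was −0.92 (adjusted p = 0.0477). Each missed the threshold without the block (0.530 and 0.288) and in 6 of the 8 fits that left out 1 library, with adjusted p between 0.0630 and 0.269. All 3 differences also missed it on both log2 FPKM scales, with adjusted p between 0.136 and 0.229, and that of Foxp1 did so with median-of-ratios size factors (0.0519) and with a minimum of 1 CPM in 2 libraries (0.0510).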

How the results depend on the processing

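Up to 18 alternatives were run for each of the 10 genes, and those that left out 1 library assume that the lone library of its group varies like the others. Relb and, in WT cells, Nfkb2 stayed past the adjusted p between subsets in all of them. Without the replicate block, the genes past the adjusted p numbered 3 higher and 0 lower between subsets in WT cells, 2 higher in Foxp1-deficient cells, and 0 lower between genotypes in rTreg cells. With no filter on low counts, 2 were higher and 2 lower between genotypes in rTreg cells and 1 was lower in aTreg cells. The 4 rTreg libraries alone gave 2 higher between genotypes. Between subsets in Foxp1-deficient cells, 1 was lower (Nfkbiz) with limma-voom and 1 with the gene-length trend removed. Leaving out 1 library gave between 0 and 1 called gene and between 0 and 2 higher and 0 and 1 lower at the adjusted p between genotypes in rTreg cells, between 2 and 5 higher between subsets in WT cells and between 1 and 5 in Foxp1-deficient cells. The cause of these shifts was not tested.

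Signs turned only for log2 fold changes that did not pass the adjusted p in the main fit. One of them, Tnfaip3 between subsets in Foxp1-deficient cells, had positive values that passed in some alternatives, as given above. Between genotypes in rTreg cells, the log2 fold change of Relb was −0.0036 with no filter and −0.0063 and −0.0067 on log2 FPKM plus 1 and plus 0.1, and that of Rel was 0.027 with the gene-length trend removed. Between subsets in WT cells, Rel was 0.020 on both FPKM scales, and Rela was 0.025 and 0.026. In replicate 2 against 1, Nfkb2 was −0.016 on both FPKM scales and Nfkb1 −0.018 with the gene-length trend removed. With 1 library left out, the range between genotypes in rTreg cells was −0.17 to 0.13 for Rel, −0.10 to 0.12 for Relb and −0.63 to 0.23 for Tnfaip3. In aTreg cells it was −0.032 to 0.305 for Nfkb2, −0.270 to 0.094 for Rel, −0.015 to 0.119 for Rela, −0.056 to 0.371 for Nfkbie and −0.523 to 0.047 for Tnfaip3. Between subsets it was −0.21 to 0.15 for Rel and −0.090 to 0.043 for Rela in WT cells, and −0.242 to 0.046 for Rel and −0.084 to 0.788 for Tnfaip3 in Foxp1-deficient cells. For Nfkb2 in replicate 2 against 1 it was −0.022 to 0.115.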
